A study of Mus musculus with 16 samples.

Results

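The genes described here encode the mitochondrial respiratory chain in mouse liver. They are all genes in the array's probe table whose symbol begins with Nduf, Sdha, Sdhb, Sdhc, Sdhd, Uqcr, Cox4i, Cox5, Cox6, Cox7, Cox8 or Atp5, together with Cyc1. The probe table held 84 such genes on 99 probes. A gene was taken as measured when a probe of it had a detection p-value under 0.01 on both arrays of 1 group or more. This left 76 of the 84 genes, among 8140 measured genes in all. The 76 comprised 67 subunits and 9 assembly factors, which help to build a complex without being part of it. Complex I had 28 of 30 subunits measured, complex II 3 of 4, complex III 6 of 8, complex IV 16 of 18 and complex V 14 of 14, and 9 of 10 assembly factors were measured. Ndufs1, Ndufab1, Ndufaf6, Sdha, Uqcrfs1, Uqcrq, Cox7b2 and Cox8c were not measured. Of the measured genes, 71 were detected on both arrays of all 8 groups. Sdhaf1 was detected on both arrays of 3 groups, Cox4i2 and Cox6b2 on both arrays of 4, and Cox6a2 and Cox8b on both arrays of 6. Just inside the detection threshold lay Sdhaf1, with intensities of 44.7 to 54.0 over the 16 arrays, and Cox4i2, with 46.2 to 57.4. Just outside it lay Ndufab1, with 32.7 to 50.2, and Uqcrfs1, with 35.6 to 48.5.

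The respiratory chain sits in the inner mitochondrial membrane and passes electrons from NADH, which enter at complex I, and from succinate, which enter at complex II, through ubiquinone to complex III, through cytochrome c to complex IV, and on to oxygen. Complexes I, III and IV pump protons, and complex V, the ATP synthase, uses the proton gradient to make ATP. Several subunits of complex IV exist as a form found in most tissues, liver included, and a second form found in heart and skeletal muscle, and the forms are encoded by separate genes. FXR, encoded by Nr1h4, is a nuclear receptor for bile acids, and SHP, encoded by Nr0b2, is a nuclear receptor that lacks a DNA-binding domain, acts as a repressor and is induced by FXR.

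Liver RNA came from male C57BL/6 mice of 4 genotypes, FXR-/-, SHP-/-, the double knockout lacking both FXR and SHP, and wild type (WT), each at 3 and 5 weeks of age. Each of the 8 groups had 2 arrays (Illumina mouse Ref-8), 16 in all. Per the labels, both single knockouts had been backcrossed to C57BL/6 and were crossed with each other to give the double knockout, WT mice came from a supplier, and all mice ate normal chow. The labels do not say whether the arrays of a group are separate animals, so the p-values measure only the spread between these arrays, which may be technical.

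Values are log2 intensities after background correction and quantile normalization, and each fold change is a difference of group means on that scale with its standard error. Calls were made by limma, at an adjusted p under 0.05 after the Benjamini-Hochberg adjustment over all 8140 genes, and only called genes are said to have risen or fallen. All 3-week arrays lay on 1 slide and all 5-week arrays on another, so age and slide cannot be told apart. Between 9597 and 10431 probes were detected per array. The second double knockout array at each age stood apart, with a biotin control signal of 1850.6 at 3 weeks and 903.0 at 5 weeks, against 2834.2 to 3487.3 on the other 14 arrays. The SD between duplicate arrays over the respiratory chain genes was 0.24 in double knockouts at 3 weeks and 0.19 at 5 weeks, against 0.10 to 0.11 in the other groups. Nr1h4 checked the labels: its level was 4.55 and 4.30 in FXR-/-, 11.14 and 11.16 in SHP-/-, 4.28 and 4.23 in double knockouts and 10.98 and 10.92 in WT at 3 weeks, and at 5 weeks it was 5.91 and 5.97 in FXR-/-, 11.18 and 11.03 in SHP-/-, 5.87 and 6.17 in double knockouts and 10.55 and 10.60 in WT. The Nr1h4 probe was above the detection threshold in all 4 groups with FXR and in 2 of the 4 without it, those at 5 weeks. Nr0b2 was not detected in any group and checked nothing. Hepatocyte markers, of which 4 of 8 were measured, had a mean level of 11.19 to 11.55 on the 16 arrays. That mean joins unlike probes. Apoa1, Ttr and Cyp2e1 averaged 13.69, 13.36 and 13.43 over all arrays. Alb was near background, at 4.36 to 5.70, and was detected on both arrays of 6 groups, FXR-/- and double knockouts at 5 weeks not among them. The comparisons of 1 age share the same WT arrays, so their values are given side by side.

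The promoters show what the genes share in sequence. They run from 250 bases before to 50 bases after each gene's start in RefSeq (GRCm38.p6), and 64 of the 76 genes had an entry. Short motifs were searched on both strands. The ETS core CCGGAAG was in 17 of the 64 promoters (26.6%), against 9.12% of 27025 mouse promoters of the same length. The core of the NRF1 site, the half-site GCGCA followed at once by its reverse complement, was in 6 (9.38%), against 0.977%, and the ERR site AAGGTCA was in 7 (10.9%), against 4.66%. The E-box CAGCTG, a core bound by muscle regulatory factors, was in 5 (7.81%), against 16.1%. The half-site AGGTCA with any letter N and then its reverse complement, an inverted repeat of the type that FXR binds, was in 0 of the 64 and in 0.0111% of all promoters. The ERR site and the inverted repeat share the letters AGGTCA. Letters in a promoter are a description and do not show that a factor binds there. The sequences are those of a pair of muscle forms, which were called in every knockout, and of a pair of forms found in most tissues, each 5′ to 3′ on the gene's strand, with the motifs in capitals (CTTCCGG is the ETS core on the other strand). Not printed is Cox7a2, the counterpart of Cox7a1 found in most tissues, whose promoter held none of the motifs. Cox8b is at chr7:140900397-140900696 (minus strand) with both E-boxes in capitals, Cox7a1 at chr7:30183921-30184220 (plus strand) with none of the motifs, Cox8a at chr19:7217567-7217866 (minus strand) with both ETS cores, and Cox6a1 at chr5:115348909-115349208 (minus strand) with an NRF1 core and an ETS core.
Cox8b: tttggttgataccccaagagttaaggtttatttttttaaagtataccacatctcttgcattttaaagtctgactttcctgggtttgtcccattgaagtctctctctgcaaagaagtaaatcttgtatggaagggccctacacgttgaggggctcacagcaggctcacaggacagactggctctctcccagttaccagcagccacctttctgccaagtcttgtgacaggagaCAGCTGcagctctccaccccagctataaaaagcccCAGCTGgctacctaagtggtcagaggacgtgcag
Cox7a1: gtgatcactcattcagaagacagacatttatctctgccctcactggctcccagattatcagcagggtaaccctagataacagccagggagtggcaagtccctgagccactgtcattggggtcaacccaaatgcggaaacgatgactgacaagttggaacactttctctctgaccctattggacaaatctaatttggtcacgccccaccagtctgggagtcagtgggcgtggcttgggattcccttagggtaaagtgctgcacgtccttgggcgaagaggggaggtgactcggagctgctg
Cox8a: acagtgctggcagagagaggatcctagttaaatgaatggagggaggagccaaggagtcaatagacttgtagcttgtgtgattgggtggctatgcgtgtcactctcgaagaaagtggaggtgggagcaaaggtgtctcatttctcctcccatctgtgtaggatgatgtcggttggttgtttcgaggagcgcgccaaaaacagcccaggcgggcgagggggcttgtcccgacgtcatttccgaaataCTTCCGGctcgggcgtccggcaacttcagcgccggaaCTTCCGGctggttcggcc
Cox6a1: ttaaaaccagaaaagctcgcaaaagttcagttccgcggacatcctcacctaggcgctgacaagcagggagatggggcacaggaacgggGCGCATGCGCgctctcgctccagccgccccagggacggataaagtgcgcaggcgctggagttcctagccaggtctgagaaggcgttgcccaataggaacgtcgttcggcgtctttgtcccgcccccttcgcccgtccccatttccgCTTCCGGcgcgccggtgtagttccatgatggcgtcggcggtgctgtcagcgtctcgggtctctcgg

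Most of the respiratory chain was close to WT in all 3 knockout genotypes, and the large changes lay in a few genes of complex IV. The muscle forms Cox6a2, Cox7a1 and Cox8b were called in all 6 comparisons of a knockout with WT, from at least 11.8-fold higher (Cox6a2, double knockout at 3 weeks) to at least 12-fold lower (Cox6a2, FXR-/- at 5 weeks). Of the other 73 genes, 48 were called in none of the 6 comparisons and 25 in at least 1, and 6 moved by at least 0.5 on the log2 scale in any of them. No share over all genes is given for these counts. Per comparison, 0.0% to 16.4% of the 73 were called, against 8.89% to 25.2% of all genes. The mean level of the 70 genes detected in all groups, muscle forms left out, was 9.91 and 9.93 in FXR-/-, 9.87 and 9.90 in SHP-/-, 9.98 and 9.92 in double knockouts and 9.93 and 9.91 in WT livers at 3 weeks. At 5 weeks it was 9.95 and 9.96 in FXR-/-, 9.93 and 9.93 in SHP-/-, 9.91 and 9.83 in double knockouts and 9.97 and 9.97 in WT. The 3-week groups overlapped except SHP-/-, which was below WT by less than 0.1, and all knockout arrays at 5 weeks were below both WT arrays, by 0.01 to 0.14.

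**Figure D1:**
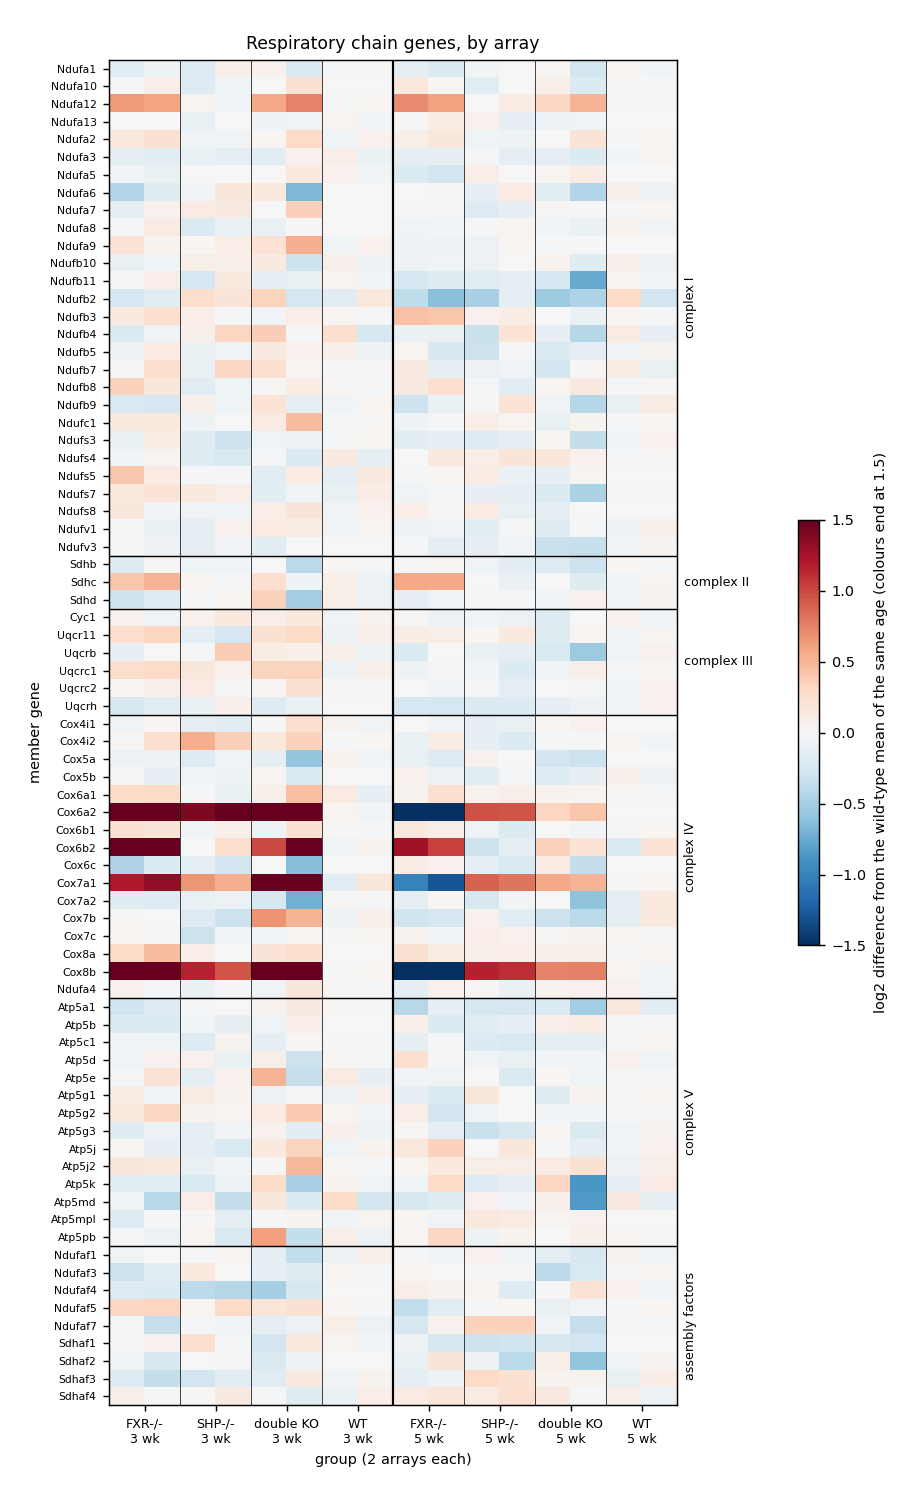
Heat map of the 76 respiratory chain genes (rows, grouped by complex) on the 16 arrays (columns), coloured by the log2 difference from the mean of the 2 WT arrays of the same age, with colours ending at 1.5. Most rows stay pale on all arrays, and the rows of Cox6a2, Cox7a1 and Cox8b carry the strong colours, which turn from higher at 3 weeks to lower at 5 weeks in FXR-/-.

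At 3 weeks, 11 of the 76 genes rose and 1 fell in FXR-/- against WT (15.8% called, against 22.7% of all genes in this comparison, 11.6% higher and 11.1% lower), with a median log2 change of 0.00 beside -0.01 over all genes. In SHP-/- 4 rose and 1 fell (6.58%, against 11.9% of all genes, 6.19% higher and 5.68% lower), with a median of -0.03. In the double knockout 11 rose and 4 fell (19.7%, against 25.2% of all genes, 13.5% higher and 11.8% lower), with a median of 0.03. The count of 12 in FXR-/- was 7 without the first FXR-/- array and 21 (16 higher, 5 lower) without both second double knockout arrays, which enter the shared estimate of the spread. The count of 5 in SHP-/- was 2 and 3 without the first and the second WT array, and 3 without the first SHP-/- array. The count of 15 in double knockouts was 29 without its first array and 8 without the first WT array. Without Cox6a2, Cox7a1 and Cox8b, the counts over 73 genes were 8 higher and 1 lower in FXR-/-, 1 and 1 in SHP-/-, and 8 and 4 in double knockouts. Over the 71 genes detected in all groups, 9, 2 and 12 were called in FXR-/-, SHP-/- and the double knockout.

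At 5 weeks, 4 genes rose and 5 fell in FXR-/- (11.8% called, against 16.8% of all genes, 8.77% higher and 8.05% lower), with a median of -0.04. In SHP-/- 3 rose and 0 fell (3.95%, against 8.89% of all genes, 4.94% higher and 3.96% lower), with a median of -0.05, and in double knockouts 4 rose and 8 fell (15.8%, against 24.4% of all genes, 13.9% higher and 10.5% lower), with a median of -0.07. The 3 genes called in SHP-/- were the muscle forms. Among the other 73 genes limma called 0 there, and 6 had an unadjusted p under 0.05. The count of 12 in double knockouts was 6 without either WT array, 5 without the second double knockout array, and 6 (3 higher, 3 lower) without both second double knockout arrays. When arrays were scaled to a common median in place of quantile normalization, it was 21, with 4 higher and 17 lower, and the count in SHP-/- was 6, with 3 higher and 3 lower. Scaling to a common median gave 7 higher and 3 lower in FXR-/- at 3 weeks.

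**Figure D2:**
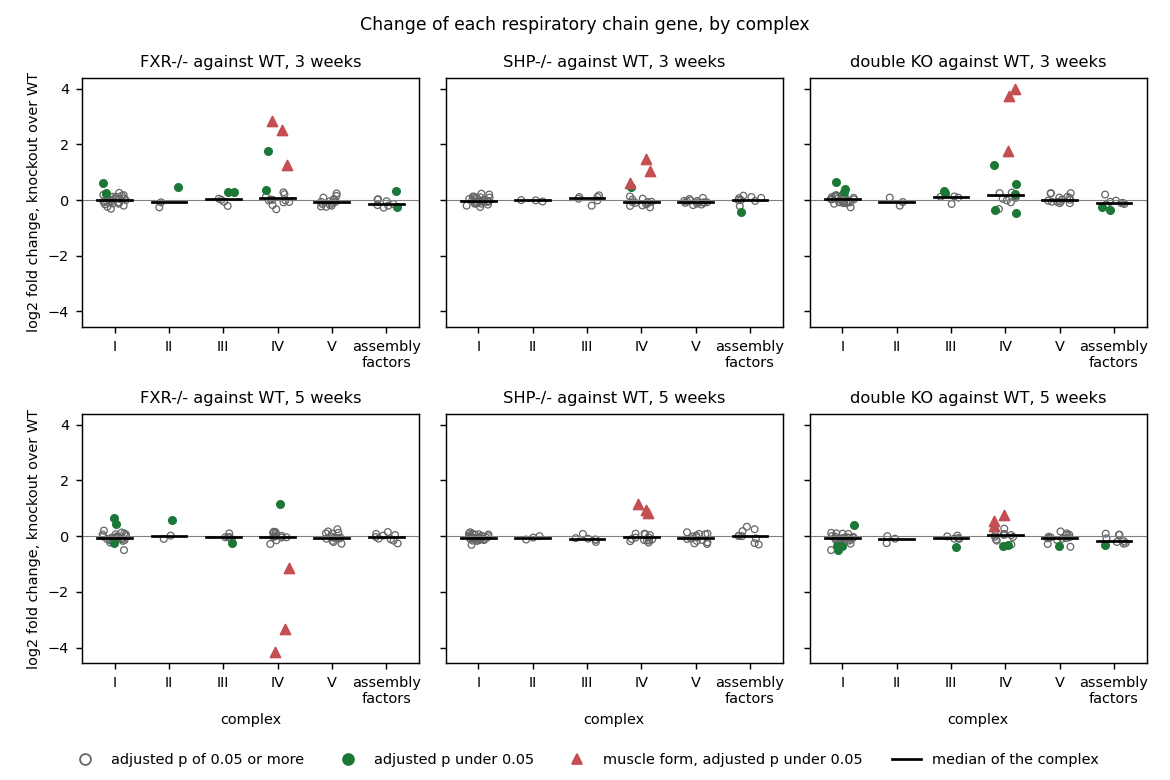
Log2 fold change of each measured gene against WT (vertical axis) by complex (horizontal axis), 1 panel for each knockout and age. Filled green points were called at an adjusted p under 0.05, open points were not, red triangles are the muscle forms and bars are medians over each complex. The medians lie between -0.18 and 0.18 in all panels, and the points far from 0 are in complex IV.

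By complex, the medians of the log2 change against WT stayed within 0.18 of 0 after quantile normalization. Scaling to a common median lowered those of double knockouts at 5 weeks to -0.17, -0.24, -0.19, -0.16 and -0.17 in complexes I to V, with -0.18 over the 76 genes and -0.07 over all genes, and complex IV there turned from 0.04 to -0.16. Complex I had medians of 0.01 in FXR-/-, -0.04 in SHP-/- and 0.03 in double knockouts at 3 weeks, and of -0.05, -0.05 and -0.07 at 5 weeks. Complex IV had 0.08, -0.06 and 0.18 at 3 weeks, which became 0.01, -0.07 and 0.08 over its 13 subunits without the muscle forms. Complex V had -0.06, -0.08 and 0.01 at 3 weeks and -0.05, -0.06 and -0.06 at 5 weeks. At 3 weeks 5, 4 and 8 of 16 complex IV subunits were called in FXR-/-, SHP-/- and the double knockout, where 22.7%, 11.9% and 25.2% of all genes were called. Cox6a2, Cox8b, Cox6b2 and Cox4i2 were not detected in every group, so that some of these calls follow from the detection filter, and over the 12 subunits detected on all 16 arrays 2, 1 and 5 were called. In complex V the counts were 0, 0 and 0 of 14 in limma, where 3, 0 and 3 subunits had an unadjusted p under 0.05. No test of a difference between complexes was made, since a complex is a list and its genes are not replicates.

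In complex I, Ndufa12 stood out among the 28 measured subunits, and most others did not pass. In order of FXR-/-, SHP-/- and double knockout, 2, 0 and 3 subunits rose and none fell at 3 weeks, and 2, 0 and 1 rose and 1, 0 and 3 fell at 5 weeks. In the same order, 22.7%, 11.9% and 25.2% of all genes were called at 3 weeks and 16.8%, 8.89% and 24.4% at 5 weeks. In SHP-/-, where limma called 0 of the 28 at either age, 2 had an unadjusted p under 0.05 at 3 weeks and 0 at 5 weeks. Ndufa12 encodes an accessory subunit added late in the assembly of complex I. At 3 weeks its level was 10.48 and 10.44 in FXR-/-, 9.89 and 9.79 in SHP-/-, 10.42 and 10.59 in double knockouts and 9.81 and 9.88 in WT. The levels at 5 weeks were 10.53 and 10.43 in FXR-/-, 9.82 and 9.94 in SHP-/-, 10.13 and 10.33 in double knockouts and 9.81 and 9.84 in WT. Every array without FXR was above every array with FXR at both ages, while SHP-/- and WT overlapped. At 3 weeks Ndufa12 was 1.53-fold higher in FXR-/- (log2 0.61 ± 0.09, adjusted p = 2.7e-05) and 1.58-fold higher in double knockouts (0.66 ± 0.09, adjusted p = 1.2e-05) than in WT. The rise at 5 weeks was 1.58-fold in FXR-/- (0.66 ± 0.09, adjusted p = 1.3e-05) and 1.33-fold in double knockouts (0.41 ± 0.09, adjusted p = 0.0015). In SHP-/- the log2 change was -0.01 (adjusted p = 0.98) at 3 weeks and 0.06 (adjusted p = 0.78) at 5 weeks. Set against SHP-/- directly, the double knockout was higher by 0.66 (adjusted p = 1.2e-05) at 3 weeks and 0.35 (adjusted p = 0.0056) at 5 weeks. Ndufa12 lies on chromosome 10, as does Nr1h4, with 25 of that chromosome's 1001 protein-coding genes between them in the RefSeq order, and its promoter held none of the searched motifs. WT mice came from a supplier, so loss of a receptor and other differences between the mouse lines cannot be told apart in any comparison with WT. The same holds between the knockout lines, the double knockout against SHP-/- included. The globin gene Hbb-b2 had 3-week means of 9.95 in FXR-/-, 5.79 in SHP-/-, 9.52 in double knockouts and 4.93 in WT. Those of Hbb-bt were 4.79, 7.57, 7.19 and 7.93. The part of line differences was not tested.

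Ndufb3, an accessory subunit of the membrane arm of complex I, was higher in FXR-/- at 5 weeks, with 10.13 and 10.11 against 9.72 and 9.67 in WT (log2 0.42 ± 0.08, adjusted p = 0.00078). At 3 weeks its FXR-/- arrays, at 9.78 and 9.88, were above the WT arrays, at 9.67 and 9.60, and it was not called. In the double knockout at 5 weeks Ndufb11, another accessory subunit of the membrane arm, fell to 5.67 and 5.18, against 5.98 and 5.89 in WT (-0.51 ± 0.15, adjusted p = 0.02). The duplicates of Ndufb11 lay further apart than either WT array from the nearer of them, and it was not called without the second of them or without either WT array. The following genes were chosen after their values were seen. In the double knockout Ndufs7, a core subunit that carries an iron-sulfur cluster, fell by 0.34 (adjusted p = 0.011) at 5 weeks, as did Ndufv3, an accessory subunit of the NADH-oxidizing module (0.34, adjusted p = 0.0034). Ndufa9 (0.39, adjusted p = 0.0056) and Ndufc1 (0.29, adjusted p = 0.029) rose in it at 3 weeks. Ndufa9 had 10.88 and 11.21 there, against 10.59 and 10.73 in WT, and Ndufc1 11.10 and 11.44 against 10.96 and 11.00. Ndufs7 had 9.90 and 9.62 in double knockouts at 5 weeks, against 10.12 and 10.08 in WT. For Ndufa9, Ndufc1 and Ndufs7 the second double knockout array, with its low biotin signal, lay further from WT than the first. For Ndufv3 a second, dimmer probe disagreed: it was higher by 0.91 in FXR-/- at 3 weeks (adjusted p over probes 4.5e-05), where the probe that stood for the gene gave -0.06. Among core subunits, Ndufv1, which binds NADH, was not called in any knockout, with changes from -0.11 to 0.11 and a widest 95% interval limit of 0.30 on the high side (double knockout, 3 weeks).

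In complex II, Sdhc rose in FXR-/- and in no other genotype at an adjusted p under 0.05. Sdhc is a membrane anchor of succinate dehydrogenase, at which ubiquinone is reduced. At 3 weeks its level was 11.39 and 11.48 in FXR-/-, 11.00 and 10.94 in SHP-/-, 11.23 and 10.90 in double knockouts and 11.06 and 10.89 in WT. The levels at 5 weeks were 11.40 and 11.38 in FXR-/-, 10.82 and 10.72 in SHP-/-, 10.81 and 10.63 in double knockouts and 10.77 and 10.86 in WT. The FXR-/- arrays were above all others of their age, and the other knockout groups overlapped WT. The rise was 1.37-fold at 3 weeks (log2 0.46 ± 0.10, adjusted p = 0.0022), and 5-week livers had 1.49-fold (0.57 ± 0.10, adjusted p = 0.00034). The double knockout differed from FXR-/- directly, by -0.37 ± 0.10 (adjusted p = 0.017) at 3 weeks and -0.67 ± 0.10 (adjusted p = 7.1e-05) at 5 weeks. Over the 3 subunits the median in double knockouts at 3 weeks was -0.07 with 0 called, -0.40 with 2 lower without the first double knockout array, and 0.25 with 1 higher without the second. Sdhb, the iron-sulfur subunit, was not called in any knockout, and its lowest change was -0.25 (95% interval -0.46 to -0.03) in double knockouts at 5 weeks.

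In complex III, 2 of 6 subunits rose in FXR-/- and 2 in double knockouts at 3 weeks, and 1 fell in each at 5 weeks. Of all genes, 22.7% and 25.2% were called in these genotypes at 3 weeks, and 16.8% and 24.4% at 5 weeks. Uqcrc1, a core protein of the complex, had 11.07 and 11.11 in FXR-/- and 11.14 and 11.14 in double knockouts at 3 weeks, against 10.72 and 10.90 in WT. Its rise was 0.28 in FXR-/- (adjusted p = 0.022) and 0.33 in double knockouts (adjusted p = 0.0077), and the groups did not overlap. Under scaling to a common median 0 subunits rose and 1 fell in FXR-/-, and 2 rose in double knockouts. Without the first WT array 0 rose in either genotype, and without either FXR-/- array 0 rose in FXR-/-. Uqcr11, a small accessory subunit chosen after its values were seen, rose in the same groups, by 0.29 (adjusted p = 0.021) and 0.26 (adjusted p = 0.037). Uqcrh, which binds at the cytochrome c1 side of the complex, had 11.80 and 11.80 in FXR-/- at 5 weeks, against 11.98 and 12.12 in WT, and fell by 0.25 (adjusted p = 0.031). Uqcrb, a subunit near the ubiquinone sites, had 9.29 and 8.97 in double knockouts at 5 weeks, against 9.45 and 9.58 in WT, and fell by 0.39 (adjusted p = 0.027). Uqcrb was not called without the second double knockout array or without either WT array, and Uqcrh was not called without either FXR-/- array or without the second WT array. Cyc1, the cytochrome that passes electrons on to cytochrome c, was not called, and its changes of -0.09 to 0.12 had 95% intervals within -0.26 and 0.30.

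In complex IV, the muscle forms Cox6a2, Cox7a1 and Cox8b were high or low together. Cox6a2 had 7.33 and 7.29 in FXR-/-, 5.87 and 5.99 in SHP-/-, 8.36 and 8.54 in double knockouts and 4.51 and 4.42 in WT at 3 weeks. Its 5-week levels were 4.23 and 4.48 in FXR-/-, 9.47 and 9.45 in SHP-/-, 8.83 and 8.93 in double knockouts and 8.50 and 8.52 in WT. Its probe was not detected on either array of WT at 3 weeks or of FXR-/- at 5 weeks, and no knockout group overlapped WT of its age. Against that background level, Cox6a2 was at least 5.36-fold higher in FXR-/- (adjusted p = 3.6e-13), at least 2.06-fold higher in SHP-/- (adjusted p = 1.4e-08) and at least 11.8-fold higher in double knockouts (adjusted p = 2.3e-15) than in WT at 3 weeks. Such a bound sets the mean of the detected group against, on each array, the lowest signal among detected probes or the gene's own where that is higher. At 5 weeks Cox6a2 was at least 12-fold lower in FXR-/- than in WT (adjusted p = 2e-15), and it rose in SHP-/- by 0.95 ± 0.10 (adjusted p = 4.9e-06) and in double knockouts by 0.37 ± 0.10 (adjusted p = 0.015). The last of these was not called without the second double knockout array or without either WT array.

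Cox8b was high and low in the same groups as Cox6a2. At 3 weeks it had 6.94 and 6.91 in FXR-/-, 5.56 and 5.35 in SHP-/-, 8.02 and 8.27 in double knockouts and 4.38 and 4.43 in WT, where it was not detected. It was at least 4.11-fold higher in FXR-/- (adjusted p = 5.5e-12), at least 1.48-fold higher in SHP-/- (adjusted p = 2.5e-06) and at least 9.54-fold higher in double knockouts (adjusted p = 1.4e-14) than in WT. Its 5-week levels were 4.52 and 4.33 in FXR-/-, where it was not detected, 8.95 and 8.89 in SHP-/-, 8.53 and 8.54 in double knockouts and 7.82 and 7.74 in WT. Cox8b was at least 7.2-fold lower in FXR-/- than in WT (adjusted p = 1e-13), and rose in SHP-/- by 1.14 (adjusted p = 1.2e-06) and in double knockouts by 0.76 (adjusted p = 6.2e-05).

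Cox7a1 was detected in all groups, so its folds are measured on both sides. At 3 weeks it had 6.84 and 6.96 in FXR-/-, 6.30 and 6.18 in SHP-/-, 7.42 and 7.41 in double knockouts and 5.46 and 5.81 in WT. It rose 2.41-fold in FXR-/- (log2 1.27 ± 0.12, adjusted p = 3.3e-07). The rise was 1.52-fold in SHP-/- (0.61 ± 0.12, adjusted p = 0.0028), and double knockouts were 3.44-fold above WT (1.78 ± 0.12, adjusted p = 3.7e-09). The call in SHP-/- was lost without the first WT array. At 5 weeks Cox7a1 had 6.17 and 5.88 in FXR-/-, 8.06 and 7.97 in SHP-/-, 7.74 and 7.68 in double knockouts and 7.14 and 7.20 in WT. It was 2.22-fold lower in FXR-/- (-1.15 ± 0.12, adjusted p = 1.6e-06), 1.8-fold higher in SHP-/- (0.84 ± 0.12, adjusted p = 0.00014) and 1.45-fold higher in double knockouts (0.53 ± 0.12, adjusted p = 0.0037). The rank of group means was alike for the muscle forms: SHP-/- at 5 weeks was highest and the double knockout at 5 weeks next for all 3, and WT at 3 weeks and FXR-/- at 5 weeks took the lowest places. For Cox6a2 the double knockout at 3 weeks (mean 8.45) and WT at 5 weeks (8.51) differed by less than the spread of their arrays.

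Markers of skeletal muscle moved with these genes. Of 15 marker genes, 13 were measured, and their mean level was 7.22 and 7.24 in FXR-/-, 5.78 and 5.73 in SHP-/-, 8.12 and 8.20 in double knockouts and 4.48 and 4.54 in WT at 3 weeks. At 5 weeks it was 4.70 and 4.66 in FXR-/-, 8.96 and 8.92 in SHP-/-, 8.68 and 8.68 in double knockouts and 8.11 and 8.05 in WT. In WT at 3 weeks and FXR-/- at 5 weeks, 2 of the 13 were detected on both arrays, against 9 in SHP-/- at 3 weeks and 12 or 13 in the other groups. The heart markers Myh6 and Myl7 were not detected in any group, and the 4 measured of 6 heart markers had means of 4.78 to 5.00 on all arrays. Cox7a1 and Cox8b are also known from brown fat, and the brown fat markers Ucp1, Cidea and Dio2 were not detected in any group. Elovl3, a fatty acid elongase of that list that liver also expresses, had 4.22 to 4.62 in the 3 knockout genotypes and 6.10 and 6.34 in WT at 3 weeks. At 5 weeks Elovl3 had 4.31 and 4.30 in FXR-/-, 8.50 and 8.63 in SHP-/-, 4.27 and 4.25 in double knockouts and 8.79 and 8.88 in WT. In such bulk tissue, fewer cells of a type and less RNA per cell cannot be told apart. The part of the muscle markers, or of brown fat, in the results for Cox6a2, Cox7a1 and Cox8b was not tested. Markers of exocrine pancreas and stomach did not follow the muscle forms: the mean of 10 measured pancreas markers was 8.66 and 8.66 in SHP-/- and 6.39 and 6.36 in FXR-/- at 5 weeks, 7.10 and 7.08 in WT at 3 weeks and 5.07 to 5.26 elsewhere, and that of 6 stomach and intestine markers was 7.04 and 6.99 in WT at 3 weeks and 4.46 to 4.83 elsewhere.

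**Figure D3:**
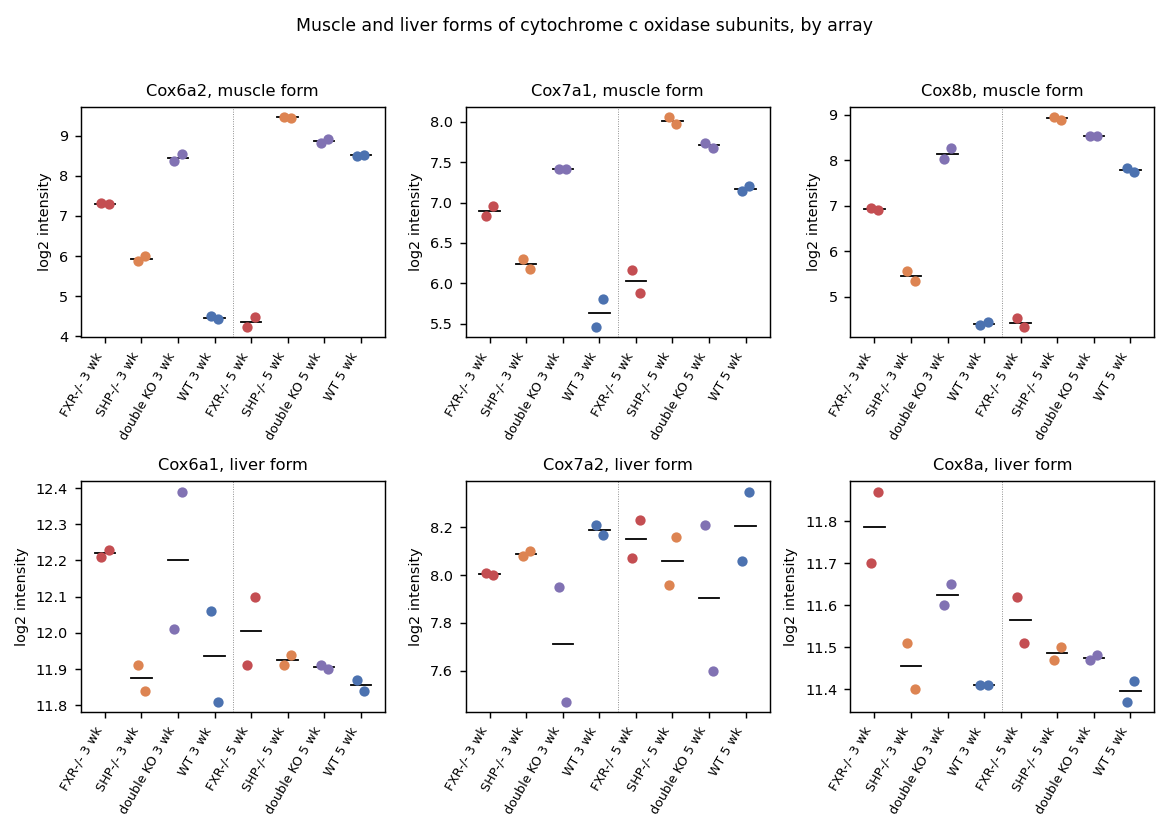
Log2 intensity of the muscle forms Cox6a2, Cox7a1 and Cox8b (upper row) and of their counterparts Cox6a1, Cox7a2 and Cox8a (lower row), 1 point per array and 1 line per group mean. Cox6a2 runs from 4.23 in FXR-/- at 5 weeks to 9.47 in SHP-/- at 5 weeks, while Cox6a1 stays between 11.81 and 12.39.

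The forms of these subunits found in most tissues moved little. Cox8a had 11.70 and 11.87 in FXR-/-, 11.51 and 11.40 in SHP-/-, 11.60 and 11.65 in double knockouts and 11.41 and 11.41 in WT at 3 weeks. It rose in FXR-/- by 0.38 ± 0.08 (adjusted p = 0.0011) and in double knockouts by 0.22 (adjusted p = 0.042), and was not called at 5 weeks, where its changes were 0.16, 0.09 and 0.08 in FXR-/-, SHP-/- and the double knockout. Cox6a1 was not called in any of the 6 comparisons by the probe that stood for it, with changes from -0.06 to 0.28. In FXR-/- at 3 weeks a second Cox6a1 probe of similar brightness gave 0.27 (adjusted p over probes 0.029). There the probe that stood for the gene gave 0.28 (adjusted p over probes 0.068). Cox7a2 had 7.95 and 7.47 in double knockouts and 8.21 and 8.17 in WT at 3 weeks. It fell by 0.48 ± 0.17 (adjusted p = 0.044), a call lost without both second double knockout arrays, without the second 3-week array alone and without either WT array. The call of Cox8a in double knockouts was lost in the same cases. In FXR-/- at 5 weeks, where the muscle forms fell, Cox8a had 11.62 and 11.51 against 11.37 and 11.42 in WT, Cox6a1 11.91 and 12.10 against 11.87 and 11.84, and Cox7a2 8.07 and 8.23 against 8.06 and 8.35, and none of them was called.

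Cox6b2, the form of subunit VIb known from testis, was detected in the groups without FXR. Since it was measured through those groups alone, its values against WT are a description and no test is given for them. At 3 weeks it had 6.10 and 6.24 in FXR-/-, 4.40 and 4.66 in SHP-/-, 5.39 and 5.90 in double knockouts and 4.35 and 4.45 in WT. Its 5-week levels were 5.94 and 5.70 in FXR-/-, 4.37 and 4.53 in SHP-/-, 5.02 and 4.89 in double knockouts and 4.47 and 4.89 in WT. Its probe was detected on both arrays of every group without FXR and on no array of SHP-/- or WT at either age. Cox6b2 was at least 2.43-fold higher in FXR-/- and at least 1.69-fold higher in double knockouts than in WT at 3 weeks, and at least 1.87-fold higher in FXR-/- at 5 weeks. In double knockouts at 5 weeks its arrays, at 5.02 and 4.89, reached or passed the higher WT array, at 4.89. Between groups that both detected it, the double knockout was below FXR-/- by 0.53 (adjusted p = 0.047) at 3 weeks and by 0.86 (adjusted p = 0.0013) at 5 weeks. Cox6b1, the form found in most tissues, was not called, with changes from -0.14 to 0.21.

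Other subunits of complex IV gave smaller changes, and most lay in double knockouts. Over all genes, too, double knockouts had the highest share called, 25.2% at 3 weeks and 24.4% at 5 weeks. Cox7b, a small accessory subunit, had 6.58 and 6.41 in double knockouts, against 5.83 and 5.98 in WT, at 3 weeks and rose by 0.59 ± 0.13 (adjusted p = 0.002). At 5 weeks Cox7b had 6.01 and 5.93 in double knockouts, against 6.19 and 6.48 in WT, and fell by 0.36 ± 0.13 (adjusted p = 0.046), a call lost without either double knockout array or without the second WT array. Cox5a, an early partner of the catalytic core, had 11.54 and 11.09 in double knockouts, against 11.73 and 11.62 in WT, at 3 weeks, and 11.30 and 11.26 against 11.58 and 11.59 at 5 weeks. It fell by 0.35 ± 0.11 (adjusted p = 0.02) and by 0.30 ± 0.11 (adjusted p = 0.047), and the 3-week call was lost without the second double knockout or the first WT array and the 5-week call without any 1 array of the groups. Cox4i2, known as a lung form of subunit IV that responds to low oxygen, had 5.30 and 5.11 in SHP-/- at 3 weeks, against 4.72 and 4.78 in WT, where it was not detected, and was at least 1.24-fold higher (adjusted p = 0.025). This call was lost without either WT array and without the first SHP-/- array. Cox4i1, the form found in most tissues, was not called in any knockout, with changes from -0.15 to 0.14 and 95% intervals within -0.32 and 0.31.

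**Figure D4:**
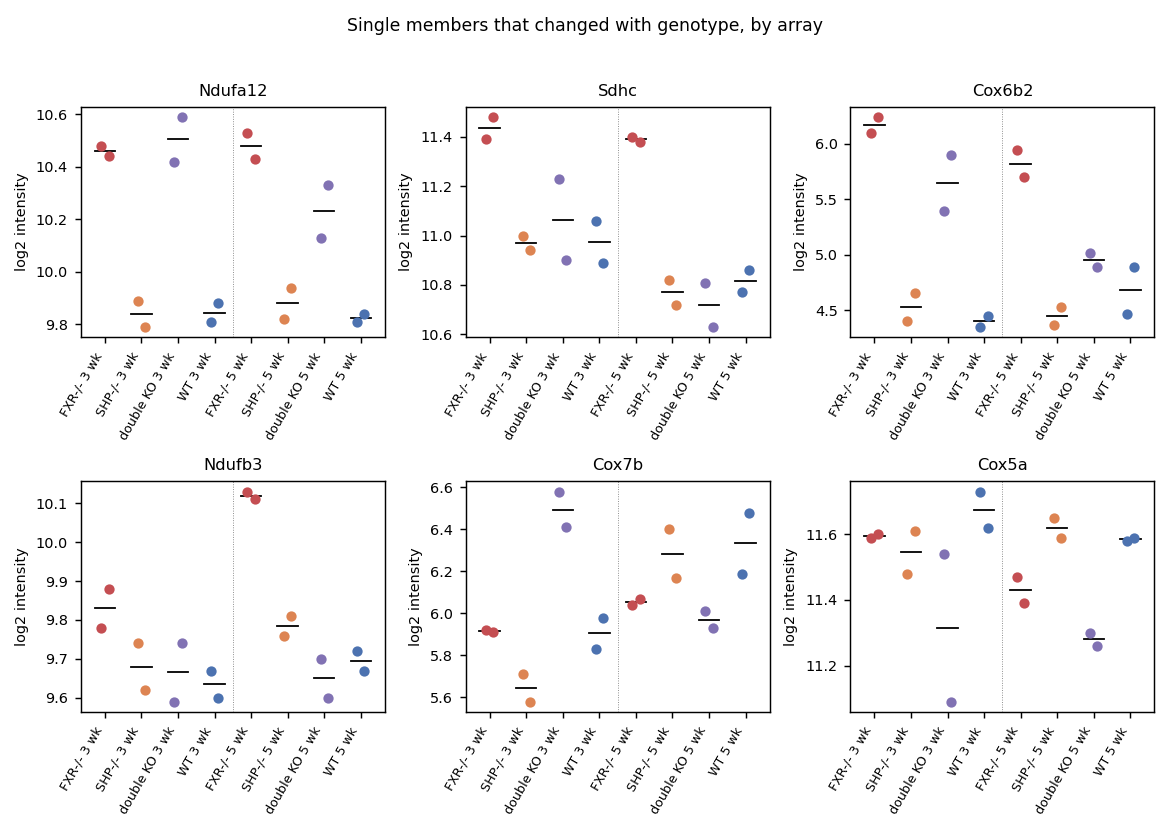
Log2 intensity of Ndufa12, Sdhc, Cox6b2, Ndufb3, Cox7b and Cox5a on each of the 16 arrays, 1 panel per gene, with a line at each group mean. Ndufa12 is at or above 10.13 on every array of FXR-/- and the double knockout and at or below 9.94 on every array of SHP-/- and WT, and Sdhc is highest in FXR-/- at both ages.

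In complex V, the ATP synthase, 1 call was made over the 6 comparisons among 14 subunits. Over all genes, 8.89% to 25.2% were called per comparison. Atp5a1, the alpha subunit of the catalytic head, had 9.21 and 8.89 in double knockouts at 5 weeks, against 9.57 and 9.26 in WT. The groups did not overlap. It fell by 0.36 ± 0.12 (adjusted p = 0.03), and the call was lost without the second double knockout array and without the first WT array. Atp5b, the catalytic beta subunit, had 13.23 and 13.23 in FXR-/-, 13.39 and 13.31 in SHP-/-, 13.37 and 13.53 in double knockouts and 13.43 and 13.43 in WT at 3 weeks. Its changes over the 6 comparisons were -0.20 to 0.10, with 95% intervals within -0.38 and 0.28, and none was called. Atp5g1, Atp5g2 and Atp5g3 encode the same membrane ring protein with different targeting sequences, and none was called in a knockout, with changes of -0.17 to 0.08, -0.09 to 0.25 and -0.28 to -0.06. At 5 weeks, limma called 0 complex V subunits in FXR-/- and SHP-/-, where 2 and 3 had an unadjusted p under 0.05.

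Among the 9 assembly factors, those of complex I gave all the calls against WT. Ndufaf3 and Ndufaf4 act together early in complex I assembly. Ndufaf3 had 8.86 and 8.99 in FXR-/-, against 9.20 and 9.13 in WT, at 3 weeks (-0.25, adjusted p = 0.039) and 8.74 and 8.91 in double knockouts, against 9.11 and 9.16 in WT, at 5 weeks (-0.31, adjusted p = 0.01). Ndufaf4 had 7.59 and 7.55 in SHP-/- and 7.48 and 7.74 in double knockouts at 3 weeks, against 7.98 and 7.98 in WT, and fell by 0.41 (adjusted p = 0.02) and 0.37 (adjusted p = 0.019). The groups did not overlap in these cases. Ndufaf1, a factor that helps to build the membrane arm, had 9.26 and 9.03 in double knockouts, against 9.32 and 9.48 in WT, at 3 weeks (-0.26, adjusted p = 0.038). Ndufaf5, a methyltransferase that acts on a complex I subunit in human cells, had 6.78 and 6.79 in FXR-/-, against 6.49 and 6.44 in WT, at 3 weeks (0.32, adjusted p = 0.047). A second probe for Ndufaf5 gave -0.21 in that comparison. Each of these calls was lost when some single array was left out: any array of the groups for Ndufaf3 and Ndufaf5 in FXR-/- and Ndufaf4 in SHP-/-, either WT array or the first double knockout array for Ndufaf4 in double knockouts, the second WT or the first double knockout array for Ndufaf3 at 5 weeks, and the second WT or the second double knockout array for Ndufaf1.

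The double knockout was also set against each single knockout. Loss of the second receptor and other differences between these lines cannot be told apart here either, and the part of each was not tested. Against FXR-/- at 3 weeks 4 of the 76 genes rose and 3 fell (9.21%, against 15.2% of all genes, 7.96% higher and 7.29% lower), with higher muscle forms (Cox8b by 1.22, Cox6a2 by 1.14, Cox7a1 by 0.51) and Cox7b higher by 0.58 (adjusted p = 0.0041). That count of 7 was 3 and 4 without the first and the second FXR-/- array, 19 and 12 without the first and the second double knockout array, and 13 (9 higher, 4 lower) without both second double knockout arrays. Against FXR-/- at 5 weeks 4 rose and 8 fell (15.8%, against 19.5%, 11% higher and 8.5% lower). Cox6a2 was at least 15.4-fold higher and Cox8b at least 12.2-fold higher there, Cox7a1 rose by 1.68, and Sdhc, Cox6b2 and Ndufb3 fell by 0.67, 0.86 and 0.47. Scaling to a common median gave 3 higher and 14 lower in that comparison.

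Against SHP-/- at 3 weeks 13 of the 76 genes rose and 1 fell in double knockouts (18.4%, against 24.8% of all genes, 13% higher and 11.8% lower). They included Cox8b (2.68), Cox6a2 (2.52), Cox7a1 (1.18), Cox7b (0.85, adjusted p = 6.6e-05) and Ndufa12 (0.66), and the median over the 76 genes was 0.06. The count of 14 was 9 without either SHP-/- array and 28 without the first double knockout array. Against SHP-/- at 5 weeks 2 rose and 6 fell (10.5%, against 21.8%, 12.4% higher and 9.36% lower). Cox6a2 fell by 0.58 (adjusted p = 0.00049) and Cox8b by 0.38 (adjusted p = 0.019), and Cox7a1 had -0.31 (adjusted p = 0.088), while Ndufa12 rose by 0.35. The count of 8 was 2 and 3 without the first and the second SHP-/- array and 2 without the second double knockout array, and without both second double knockout arrays the split was 5 higher and 6 lower.

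In WT livers, 6 of the 76 genes rose and 1 fell at 5 weeks against 3 weeks (9.21%, against 16% of all genes, 7.47% higher and 8.54% lower), a contrast in which age and slide cannot be told apart. Cox6a2 was at least 12.3-fold higher (adjusted p = 2.3e-15) and Cox8b at least 7.4-fold higher at 5 weeks, and Cox7a1 rose 2.91-fold (log2 1.54, adjusted p = 4.3e-08). Ndufb2, an accessory subunit of complex I chosen after its values were seen, had 6.63 and 6.06 at 5 weeks against 5.37 and 5.69 at 3 weeks (0.82 ± 0.20, adjusted p = 0.0073). Cox7b rose by 0.43 (adjusted p = 0.026), and Ndufb5, also chosen after its values were seen, by 0.39 (adjusted p = 0.023). Atp5g1 had 11.59 and 11.64 at 5 weeks, against 11.90 and 12.05 at 3 weeks, and fell by 0.36 (adjusted p = 0.011). The count of 7 was 4 without the first 5-week array, 12 when the fit used WT arrays alone and 14 without both second double knockout arrays.

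Each called respiratory chain gene had a lower knockout effect at 5 weeks than at 3 weeks. In FXR-/- 4 of 76 were called, all lower (5.26%, against 9.47% of all genes, 4.47% higher and 5% lower), in SHP-/- 2 (2.63%, against 7.74%, 4.21% higher and 3.53% lower) and in double knockouts 5 (6.58%, against 12.3%, 6.77% higher and 5.55% lower). Cox7a1, detected in all groups, differed by -2.41 ± 0.18 in FXR-/- (adjusted p = 1.2e-08) and -1.25 ± 0.18 in double knockouts (adjusted p = 7.8e-05). Cox6a2 and Cox8b were not detected in WT at 3 weeks, so their differences rest on background values and are not sized here. In the double knockout Cox7b differed by -0.96 ± 0.18 (adjusted p = 0.0015). Cox6b2 is among the called genes there, but it was not detected in WT and was measured only through the groups without FXR. Its difference is therefore a description, and no test is given for it. The median over the 76 genes was -0.03, -0.01 and -0.12 in FXR-/-, SHP-/- and the double knockout. Without the first double knockout array at 3 weeks the count of 5 was 13, and without the first at 5 weeks it was 8. The count of 2 in SHP-/- was 0 or 1 without any 1 array of its groups, and 4, with 2 higher and 2 lower, without both second double knockout arrays. With the authors' processed table it was 1, which was higher, and both other calls were lost.

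**Figure D5:**
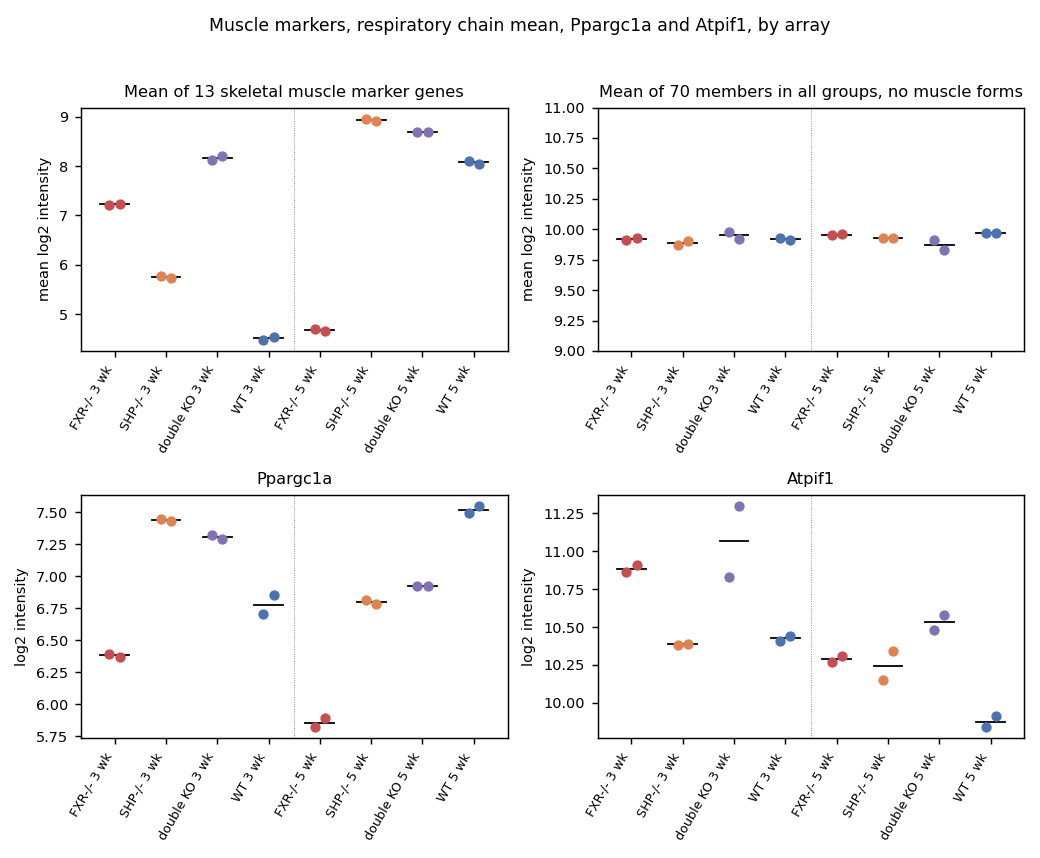
Mean log2 intensity of 13 skeletal muscle markers, mean of 70 respiratory chain genes without muscle forms, and levels of Ppargc1a and Atpif1 on each of the 16 arrays, with lines at group means. The muscle marker mean runs from 4.48 to 8.96, while the mean of the 70 genes stays between 9.83 and 9.98.

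Genes that work beside the respiratory chain were counted in the same way, to be read beside all-gene shares called of 22.7%, 11.9% and 25.2% in FXR-/-, SHP-/- and double knockouts at 3 weeks and of 16.8%, 8.89% and 24.4% at 5 weeks. Of 18 genes of the tricarboxylic acid cycle and pyruvate dehydrogenase, 6, 4 and 7 rose and 1, 0 and 1 fell in FXR-/-, SHP-/- and the double knockout at 3 weeks, with medians of 0.14, 0.00 and 0.17. At 5 weeks 2, 0 and 1 rose and 0, 1 and 2 fell. Cs, citrate synthase, rose at 3 weeks by 0.69 in FXR-/- (adjusted p = 4.1e-05), 0.35 in SHP-/- (adjusted p = 0.029) and 0.50 in double knockouts (adjusted p = 0.00094), and at 5 weeks by 0.36 in FXR-/- (adjusted p = 0.018). Pdk4, a kinase that switches off pyruvate dehydrogenase, rose by 1.24 in FXR-/- (adjusted p = 1.2e-07) and 1.33 in double knockouts (adjusted p = 5e-08) at 3 weeks and by 0.84 in double knockouts (adjusted p = 1.9e-05) at 5 weeks. Of 9 electron carriers and feeders 1, 0 and 2 rose and 0, 1 and 0 fell at 3 weeks, and 2, 0 and 1 rose and none fell at 5 weeks. Gpd2, which feeds electrons from glycerol phosphate to ubiquinone, rose in FXR-/- by 0.76 (adjusted p = 7.5e-06) at 3 weeks and 1.04 (adjusted p = 1.6e-07) at 5 weeks. Its double knockout arrays were above WT too, with 8.43 and 8.32 against 7.73 and 7.65 at 3 weeks. At 5 weeks they had 7.50 and 7.48 against 6.86 and 6.95. SHP-/- had 7.41 and 7.50 at 3 weeks and 6.88 and 6.85 at 5 weeks.

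Of 11 regulators of mitochondrial genes, 0, 1 and 3 rose and 2, 1 and 1 fell at 3 weeks, and 0, 1 and 1 rose and 2, 1 and 4 fell at 5 weeks, in FXR-/-, SHP-/- and the double knockout. Ppargc1a, a coactivator of respiratory chain genes, had 6.39 and 6.37 in FXR-/-, 7.45 and 7.43 in SHP-/-, 7.32 and 7.29 in double knockouts and 6.70 and 6.85 in WT at 3 weeks. The 5-week levels of Ppargc1a were 5.82 and 5.89 in FXR-/-, 6.81 and 6.78 in SHP-/-, 6.92 and 6.92 in double knockouts and 7.49 and 7.55 in WT. Its groups did not overlap WT in any comparison. Ppargc1a fell in FXR-/- at both ages (-0.39, adjusted p = 0.0051, and -1.67, adjusted p = 2.3e-10), rose in SHP-/- and the double knockout at 3 weeks (0.66 and 0.53) and fell in both at 5 weeks (-0.73 and -0.60), while the mean of the 70 respiratory chain genes moved by less than 0.15. Atpif1, which blocks the reverse reaction of ATP synthase, was among 14 carriers and uncouplers of the inner membrane, of which 3, 1 and 2 rose and none fell at 3 weeks, and 2, 1 and 3 rose and 1, 0 and 1 fell at 5 weeks. It rose in 5 of the 6 comparisons, by 0.37 to 0.66, and in SHP-/- at 3 weeks it had -0.04 (adjusted p = 0.88). Its level in double knockouts at 5 weeks was 10.48 and 10.58, against 9.84 and 9.91 in WT. Of 8 genes of mitochondrial DNA maintenance, 0, 0 and 1 rose and 1, 0 and 0 fell at 3 weeks, and 1, 0 and 0 rose and 0, 1 and 2 fell at 5 weeks. Of 23 other assembly factors 1, 1 and 2 rose and 1, 1 and 2 fell at 3 weeks, and 0, 1 and 0 rose and 0, 0 and 2 fell at 5 weeks.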

How the data were processed

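Liver RNA of 16 samples in 8 groups was measured on Illumina mouse Ref-8 bead arrays. Per the file headers, the table of raw values gives each probe's mean bead intensity, the bead standard error as a signal column, the bead number and a detection p-value. It was exported from BeadStudio (BSGX 3.2.3, per the file headers) without normalization. The bead errors and bead numbers were not used. A processed table deposited by the authors holds log2 values with the same distribution on every array. How these were made is not given in the sources used here, and they served as an alternative.

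Intensities were corrected and quantile normalized with neqc (offset 16) of limma 3.58.1 in R 4.3.3. Of 24613 probes, besides 858 control probes, 10998 (44.7%) passed the detection threshold (p under 0.01) on both arrays of some group. A single gene symbol was listed for 20984 probes, several for 1 and none for 3628. The brightest kept probe stood for its gene, and 7 of the respiratory chain genes had several kept probes. All 84 Entrez identifiers of these genes matched RefSeq. Linear models with 1 mean per group were fitted to all 16 arrays (lmFit and contrasts.fit, then eBayes with the trend option, 8 residual degrees of freedom), and the code was tested on simulated data. P-values were adjusted over all genes within each of 14 comparisons. The number of arrays limits the precision, and the standard error of a log2 change against WT was 0.08 to 0.27, with a median of 0.1, over the genes other than the muscle forms.

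The genes, the lists and the tests were chosen with earlier results of these data known, so the lists carry counts and medians and no test of their own. Genes were named where they had the 4 largest rises or falls among called genes of a comparison with WT, were core subunits, belonged to families of tissue forms, were called the same way in 5 of 6 comparisons, differed between ages, or were assembly factors. Others are marked as chosen after their values were seen. Alternatives were other values, scalings, filters, probes and sets of arrays, the replicate number as a block, and each array left out. Leaving out both second double knockout arrays was chosen after seeing the data. The replicate numbers do not pair arrays: deviations of same-numbered arrays correlated at -0.13 to 0.12 over genes.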

Additional observations from a re-analysis of the deposited data

Results flagged for a closer look

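In 11 cases the effect of a knockout on a respiratory chain gene differed between 5 and 3 weeks by limma's test of the difference itself (effect at 5 weeks minus effect at 3 weeks, adjusted p under 0.05), which cannot be told apart from a difference between slides.

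For the muscle forms in FXR-/-, Cox6a2 differed by -7.00 (SE 0.15, adjusted p = 9.9e-17), Cox8b by -5.88 (SE 0.16, adjusted p = 4.4e-15) and Cox7a1 by -2.41 (SE 0.18, adjusted p = 1.2e-08). In the double knockout the differences were -3.61 for Cox6a2 (SE 0.15, adjusted p = 4.2e-12), -2.98 for Cox8b (SE 0.16, adjusted p = 1.9e-10) and -1.25 for Cox7a1 (SE 0.18, adjusted p = 7.8e-05). In SHP-/- Cox6a2 differed by -0.51 (SE 0.15, adjusted p = 0.041). In FXR-/- both arrays of each muscle form were above WT at 3 weeks and below WT at 5 weeks. Since Cox6a2 and Cox8b were not detected in WT at 3 weeks or in FXR-/- at 5 weeks, the sizes for them depend on the background level. For Cox6a2 in SHP-/- the bound at 3 weeks (at least 2.06-fold) is close to the fold at 5 weeks (1.93), so that difference rests on background values. The mean of 13 muscle markers was 7.22 and 7.24 in FXR-/- against 4.48 and 4.54 in WT at 3 weeks, and 4.70 and 4.66 against 8.11 and 8.05 at 5 weeks, and its part in these differences was not tested.

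Outside the muscle forms, the double knockout's effect on Cox7b differed by -0.96 (SE 0.18, adjusted p = 0.0015), being higher than WT at 3 weeks and lower at 5 weeks. The double knockout's effect on Cox6b2, also among the cases counted above, differed by -0.97 (SE 0.24). Cox6b2 was not detected in WT at either age and was measured only through the groups without FXR. The size of that difference rests on background values, and no test is given for it. In SHP-/- the effect on Cox4i2, a probe near the detection limit, differed by -0.62 (SE 0.18, adjusted p = 0.042). In FXR-/- the effect on Ndufaf5 differed by -0.58 (SE 0.16, adjusted p = 0.024): its arrays had 6.78 and 6.79 against 6.49 and 6.44 in WT at 3 weeks, and 6.23 and 6.44 against 6.56 and 6.63 at 5 weeks. A second, dimmer probe for Ndufaf5 gave -0.03 for this difference (limma, adjusted p over probes 0.98).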

How the results depend on the processing

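No named gene changed direction while called under any alternative, and 28 of the 48 calls of named genes against WT were kept under all of them, by Cox6a2, Cox6b2, Cox7a1, Cox8a, Cox8b, Ndufa12, Sdhc, Cox7b and Ndufb3, while 20 were lost under at least 1. The kept calls of Cox6b2 are a description and no test, since it was measured only through the groups without FXR. Counts of called respiratory chain genes that left the range within 1.5 times of the reported count were as follows. Keeping only probes detected on all 16 arrays gave 2 in SHP-/- against WT at 3 weeks (reported count 5), 1 at 5 weeks (3), 4 in the double knockout against FXR-/- at 3 weeks (7), and 2, 0 and 2 for the age differences in FXR-/- (4), SHP-/- (2) and the double knockout (5). Scaling to a common median gave 21 in double knockouts (12) and 6 in SHP-/- (3) at 5 weeks, and 11 for the age difference in double knockouts (5). Without both second double knockout arrays the counts were 21 in FXR-/- at 3 weeks (12), 6 in SHP-/- and 6 in double knockouts at 5 weeks, 13 in the double knockout against FXR-/- at 3 weeks, 4 for the age difference in SHP-/- (2 higher, 2 lower) and 14 in WT at 5 against 3 weeks (7). The fit on WT arrays alone gave 12 there. Without a detection filter, the double knockout against SHP-/- at 5 weeks had 5 (8). The age difference in SHP-/- was 1, which was higher, with the authors' processed table and 0 without background correction, without a detection filter and with the replicate block. With the replicate number as a block, the counts against WT were 10, 5 and 13 in FXR-/-, SHP-/- and the double knockout at 3 weeks and 8, 3 and 10 at 5 weeks, and no other count moved by over 1.5 times.

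Leaving out each array in turn gave 7 to 9 in FXR-/-, 2 to 5 in SHP-/- and 8 to 29 in the double knockout against WT at 3 weeks, and 7 to 9, 3 to 3 and 5 to 14 at 5 weeks. The double knockout had 3 to 19 against FXR-/- and 9 to 28 against SHP-/- at 3 weeks, and 8 to 13 and 2 to 9 at 5 weeks. The age differences gave 3 to 4 in FXR-/-, 0 to 1 in SHP-/- and 4 to 13 in double knockouts, and WT gave 4 to 6. In the authors' processed table dim genes had smaller folds: in FXR-/- at 3 weeks Cox6a2 had 1.46 (2.84 here), Cox8b 1.22 (2.52), Cox6b2 0.76 (1.77) and Cox7a1 0.72 (1.27). Signals near background limit Cox6a2, Cox8b, Cox6b2, Cox4i2 and Sdhaf1, and 2 arrays a group limit changes of the size most other genes had.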
